A study of Danio rerio with 36 samples.

Results

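Expression of 9 cytokine genes, il1b, tnfa, tnfb, il6, il10, il11a, il11b, il34 and tgfb1a, was followed in whole zebrafish larvae across 3 culture media and before and after removal of the caudal fin. The genes were taken by their symbols, and all 9 were found among the 30221 genes of the deposited table. Wild-type embryos had been kept from 6 h post fertilisation (hpf) in regular medium or with 130 mM or 222 mM D-glucose. After 14 days the caudal fin was cut off distal to the spinal cord, and culture went on in the same medium. RNA of whole animals was taken from uncut larvae and at 3, 24 and 48 h after amputation, which gave 12 groups of 3 libraries. The labels give neither the number of larvae behind a library nor the age of the uncut larvae, so effects of amputation and of time since the uncut sampling cannot be told apart. No osmotic control was analysed here, and glucose and osmolarity cannot be told apart. Nothing in the labels says that the libraries of a group came from separate clutches, so p-values measure the spread between these libraries, which may be technical.

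Cytokines are secreted proteins through which damaged tissue and immune cells signal to each other. Interleukin 1 beta and the tumour necrosis factors are early alarm signals. They act through receptors that switch on the transcription factor NF-kB, and the interleukin 1 beta precursor is cut to its active form by inflammasome caspases. Interleukin 6 and interleukin 11 share the receptor chain gp130, encoded by il6st, which activates Stat3, and zebrafish il11a is known from studies of fin and heart regeneration. Interleukin 34 is a ligand of the receptor of colony stimulating factor 1, on which macrophages depend. Interleukin 10 and transforming growth factor beta 1 are best known for dampening inflammation, and the latter also for driving matrix production during repair. The 9 genes are therefore cytokines of inflammation and repair, and not all of them are pro-inflammatory.

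Among the clearest changes were the rise of tnfb 24 h after amputation in regular medium and its lower level in both glucose media at that time. Another was the rise of il1b 3 h after amputation in 130 mM glucose. In 222 mM glucose il11a was higher than in regular medium in uncut larvae and at 3 and 24 h. The calls at 3 and 24 h could be lost by leaving out a single library. At 48 h the difference of il11a from regular medium did not pass, and neither did its fall from uncut larvae in 222 mM. Over the 12 groups, il1b, tnfb, il11a and tgfb1a differed (edgeR quasi-likelihood F test over all genes, adjusted p = 9.15e-05, 1.98e-05, 3.28e-05 and 0.000499). That is 4 of the 8 cytokine genes that could be tested, and 66.2% of all 25319 genes tested passed the same F test. For il34, tnfa, il10 and il11b no difference passed in the 21 comparisons of 2 groups made here, and il6 was too low to be tested.

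Total counts ran from 47904694 to 67514889 per library. In 4 libraries the expression profile stood apart from the other libraries of its group: replicate 3 of the uncut larvae in regular medium, replicate 3 of the uncut larvae in 222 mM, replicate 1 at 3 h in regular medium and replicate 1 at 24 h in 130 mM. Of 20 markers of liver, pancreas, muscle, lens, blood, brain and other larval tissues, 18 reached 1 FPKM (fragments per kilobase of transcript, scaled to library size) in every library. Levels between genes are compared in FPKM, as the authors deposited it, and levels of a gene between groups in CPM, the count scaled by the library's TMM-corrected total. A change was called at a Benjamini-Hochberg adjusted p under 0.05 over all genes tested, with no minimum fold, and log2 fold changes are given with their standard errors (SE).

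Per length, the most abundant of the 9 genes was tgfb1a, with a median of 2.92 FPKM over the 36 libraries and a range of 1.85 to 4.19 FPKM. It was followed by il34 with a median of 2.62 FPKM. Both reached 1 FPKM in all 36 libraries. The level of il11a ranged from 0 to 6.79 FPKM and reached 1 FPKM in 15 libraries, against 12 for il1b and 11 for tnfb. At no time did il10, il11b, tnfa or il6 reach 1 FPKM, and their highest values were 0.432, 0.612, 0.393 and 0.304 FPKM. These genes were listed at 0 in 12, 17, 13 and 22 of the 36 libraries. A count of 0 in a library allows up to 3 counts, or 0.0429 to 0.0622 CPM at these depths, and this limit covers counting error only.

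**Figure D1:**
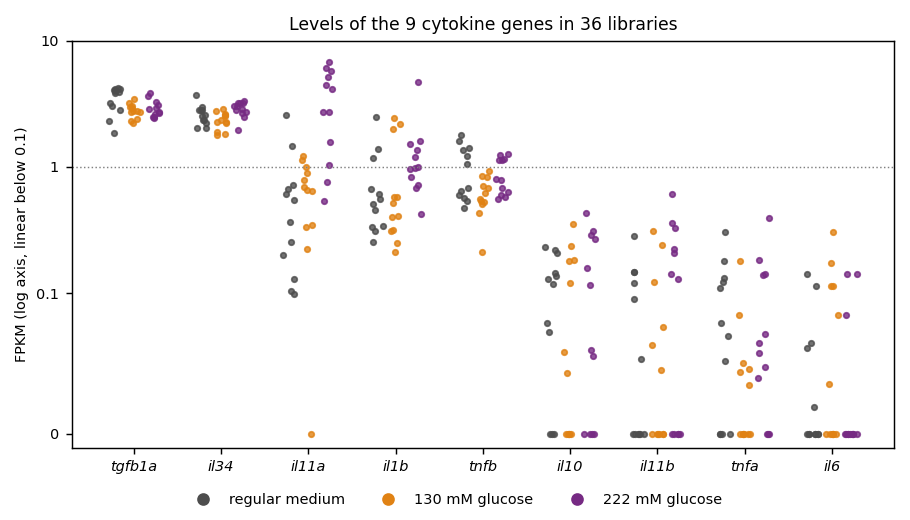
FPKM of each cytokine gene (x axis) in each of 36 libraries (points, coloured by medium) on a log axis that is linear below 0.1. The points of tgfb1a and il34 all lie above 1 FPKM (dotted line), those of il10, il11b, tnfa and il6 all lie below it, and il11a spans the widest range, from 0 to 6.79 FPKM.

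The alarm cytokine il1b (GRCz11 chromosome 10, 44955106 to 44964776) was low in uncut larvae of 2 media. In regular medium it was at 1.33, 1.01 and 1.17 CPM, and in 130 mM glucose at 1.00, 0.825 and 1.26 CPM. The 2 groups overlapped. At 3 h after amputation in 130 mM the libraries were at 9.08, 9.85 and 8.01 CPM, all above every uncut library of this medium. The rise was 8.72-fold (log2 3.12 ± 0.60 SE, edgeR adjusted p = 0.000353), and it passed without each single library (log2 2.99 to 3.30). These libraries also lay above all those of regular medium at 3 h. That difference of log2 1.58 ± 0.55 did not pass (edgeR adjusted p = 0.0805), while DESeq2, run as an alternative, called it. By 24 h in 130 mM the level was at 1.58, 1.27 and 2.08 CPM, and at 48 h it was at 2.42, 1.76 and 2.53 CPM. Neither change passed (log2 0.67 ± 0.59 and 1.12 ± 0.58, edgeR adjusted p = 0.588 and 0.284), although the libraries did not overlap with the uncut ones.

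In regular medium il1b was more variable. At 3 h its libraries were at 5.13, 2.19 and 1.68 CPM, and at 24 h at 2.18, 2.38 and 5.48 CPM. Every one of these lay above the uncut libraries, but with log2 changes of 1.35 ± 0.58 and 1.51 ± 0.58 neither time passed (edgeR adjusted p = 0.132 and 0.106). DESeq2 called il1b at 24 h and not at 3 h. At 48 h the libraries were at 2.53, 1.28 and 9.21 CPM, which overlapped with uncut larvae, and the change of log2 1.89 ± 0.58 passed (edgeR adjusted p = 0.0340). That call rested on replicate 3, without which the log2 change was 0.70 with an adjusted p of 0.496.

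In 222 mM glucose il1b was at 1.86, 2.69 and 6.79 CPM in uncut larvae, above all uncut libraries of the other media. With log2 changes of 1.69 ± 0.58 against regular medium and 1.88 ± 0.58 against 130 mM the differences did not pass (edgeR adjusted p = 0.0635 and 0.0539). DESeq2 called il1b in both comparisons. At 3 h after amputation the libraries were at 19.6, 7.28 and 5.33 CPM, which is where the highest il1b value of the series was found. These libraries lay above those of regular medium at the same time, by 3.59-fold (log2 1.84 ± 0.56, edgeR adjusted p = 0.0209). Without replicate 1 of 222 mM the log2 difference fell to 1.07 (adjusted p = 0.216), and without replicate 1 of regular medium it was 2.48. Against uncut larvae in the same medium the 3 h level differed by log2 1.51 ± 0.55, which did not pass (edgeR adjusted p = 0.220). The libraries of these 2 groups overlapped. At 24 and 48 h the 222 mM groups had means of 4.31 ± 1.12 and 3.47 ± 0.589 CPM (SD, n = 3). The difference from 130 mM at 24 h, log2 1.40 ± 0.57, did not pass (edgeR adjusted p = 0.0843), while DESeq2 called it. When the 12 groups were put in order of their il1b means, every group overlapped with its neighbours, from 10.8 ± 7.76 CPM at 3 h in 222 mM to 1.03 ± 0.219 CPM in uncut larvae in 130 mM.

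At 3 h the mean of il1b was highest in both glucose media. The summed CPM of 7 neutrophil markers was then 107 to 149 in 130 mM and 112 to 172 in 222 mM. In the uncut larvae of these media it was 81.3 to 91.5 and 92.1 to 154. The summed CPM of 13 macrophage markers found in the table was 138 to 162 and 123 to 183, against 144 to 158 and 118 to 149. In regular medium at 3 h, where il1b had a mean of 3.00 ± 1.86 CPM (SD, n = 3), the neutrophil markers summed to 112 to 162 CPM. Uncut larvae of that medium had 71.2 to 116 CPM. The macrophage markers summed to 166.5 to 198.5 CPM there, against 154 to 175 CPM. No marker of either list was at 0 in all libraries. The part of these cells in the il1b result was not tested. In whole-animal RNA, fewer cells of a type and less RNA per cell cannot be told apart.

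**Figure D2:**
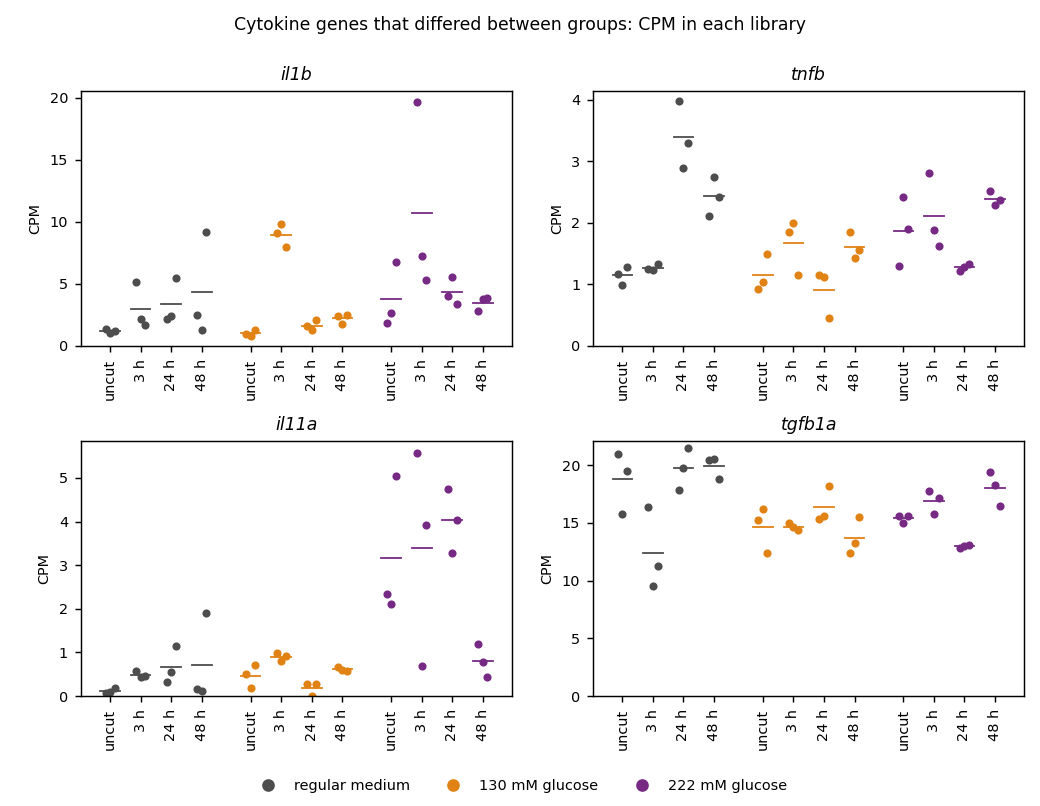
CPM (y axis, linear from 0) of the 4 cytokine genes that differed between groups, in each library (points) and as the group mean (lines), by medium (colour) and by time from uncut to 48 h (x axis). All libraries at 24 h in regular medium have more tnfb than any other library. The group mean of il1b is highest at 3 h in both glucose media, but in 222 mM these libraries overlap with the uncut ones. In 222 mM il11a is above 2 CPM in uncut larvae and at 24 h.

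Of the pair of tumour necrosis factor genes, tnfb (GRCz11 chromosome 15, 34699585 to 34702661) carried nearly all of the reads. In uncut larvae in regular medium it was at 1.17, 0.992 and 1.29 CPM, and 3 h after amputation at 1.25, 1.24 and 1.33 CPM. At 24 h it was at 3.97, 2.90 and 3.30 CPM, higher than in any library of any other group. The rise from uncut larvae was 2.94-fold (log2 1.56 ± 0.29, edgeR adjusted p = 0.00137) and passed without each single library (log2 1.43 to 1.66). At 48 h the libraries were at 2.12, 2.75 and 2.42 CPM, below all 24 h libraries and above all uncut ones, and the rise of 2.11-fold passed (log2 1.08 ± 0.29, edgeR adjusted p = 0.0154). It missed the threshold without any of 3 of the 6 libraries compared (highest adjusted p = 0.0960).

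In glucose no change of tnfb from uncut larvae passed at any time. In uncut larvae it was at 0.918, 1.035 and 1.489 CPM in 130 mM and at 1.302, 2.412 and 1.895 CPM in 222 mM. The 222 mM libraries lay above those of regular medium in uncut larvae and at 3 h, when they were at 2.80, 1.88 and 1.62 CPM. Neither difference passed (log2 0.70 ± 0.29 and 0.73 ± 0.29, edgeR adjusted p = 0.129 and 0.0758). At 24 h tnfb was at 1.15, 1.12 and 0.456 CPM in 130 mM and at 1.22, 1.28 and 1.34 CPM in 222 mM. Both groups lay below every library of regular medium at that time, 3.70-fold lower in 130 mM (log2 -1.89 ± 0.30, edgeR adjusted p = 0.000214) and 2.64-fold lower in 222 mM (log2 -1.40 ± 0.29, edgeR adjusted p = 0.000454). Both differences passed without each single library. The 2 comparisons share the libraries of regular medium. At 48 h tnfb had means of 1.61 ± 0.212 CPM in 130 mM and 2.39 ± 0.120 CPM in 222 mM (SD, n = 3). The latter differed from regular medium by log2 -0.02 ± 0.28, which did not pass (edgeR adjusted p = 0.978). The difference of 130 mM from regular medium at 48 h, where the libraries did not overlap, was log2 -0.59 ± 0.29 and did not pass (edgeR adjusted p = 0.165). The course over the 3 times after amputation, taken relative to uncut larvae, differed from that in regular medium in both glucose media (edgeR F test, adjusted p = 0.00221 for 130 mM and 0.00200 for 222 mM).

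At 24 h in regular medium, where tnfb was highest, the summed level of leukocyte markers was above that of uncut larvae. The 13 macrophage markers summed to 154 to 175 CPM in uncut larvae and to 274 to 317 CPM at 24 h in regular medium, against 157 to 212 CPM in 130 mM and 103 to 118 CPM in 222 mM at 24 h. In the same order, the 7 neutrophil markers summed to 71.2 to 116, 165 to 197, 89.9 to 193 and 98.4 to 104 CPM, and 14 lymphocyte markers to 32.9 to 65.2, 73.0 to 76.3, 41.1 to 62.4 and 18.7 to 25.6 CPM. In regular medium 4 of 13 macrophage, 2 of 7 neutrophil and 2 of 12 tested lymphocyte markers rose by 24 h and none fell, beside 4.19% and 3.18% of all genes. At 48 h, when tnfb was also higher than in uncut larvae, 1 macrophage marker rose and 1 fell, and no neutrophil or lymphocyte marker passed. Their part in the tnfb result was not tested.

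The other tumour necrosis factor gene, tnfa (GRCz11 chromosome 19, 27019432 to 27024019), had at most 30 counts in a library. In regular medium its counts were 24, 0 and 4 in uncut larvae, 6, 0 and 0 at 3 h, 7, 0 and 10 at 24 h and 11, 14 and 9 at 48 h. The highest group was 222 mM at 48 h with 14, 12 and 30 counts. No comparison passed with edgeR, none had an unadjusted p under 0.05. DESeq2 gave tnfa an adjusted p in 6 of the 21 comparisons and called none of these.

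The interleukin 11 gene il11a (GRCz11 chromosome 16, 12611362 to 12617155) had group means from 0.121 ± 0.0647 CPM in uncut larvae in regular medium to 4.03 ± 0.735 CPM at 24 h in 222 mM (SD, n = 3), a 33.3-fold range. In uncut larvae it was at 0.0772, 0.0902 and 0.195 CPM in regular medium, which is 5, 5 and 12 counts, and at 0.508, 0.178 and 0.703 CPM in 130 mM. In 222 mM it was at 2.35, 2.12 and 5.05 CPM, above all uncut libraries of the other media. The difference was 25.8-fold against regular medium (log2 4.69 ± 0.93, edgeR adjusted p = 0.00128) and 6.83-fold against 130 mM (log2 2.77 ± 0.81, edgeR adjusted p = 0.0388). The former passed without each single library (log2 4.18 to 5.21). The latter missed the threshold without any of 5 of the 6 libraries.

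After amputation in 222 mM no change of il11a passed. Its libraries were at 5.57, 0.679 and 3.91 CPM at 3 h and at 4.76, 3.29 and 4.04 CPM at 24 h, and these times differed from uncut larvae by log2 0.10 ± 0.73 and 0.34 ± 0.73, with overlapping libraries. At 48 h they were at 1.196, 0.781 and 0.435 CPM, below every uncut library, but the difference of log2 -1.98 ± 0.77 did not pass (edgeR adjusted p = 0.0891). DESeq2 called this fall. Replicate 2 at 3 h was far below the other libraries of its group. Against regular medium il11a was higher at 3 h by 6.97-fold (log2 2.80 ± 0.81, edgeR adjusted p = 0.0153) and at 24 h by 6.00-fold (log2 2.59 ± 0.79, edgeR adjusted p = 0.0144), with no overlap at either time. The highest adjusted p without a single library was 0.0819 at 3 h and 0.0728 at 24 h. Against 130 mM at 24 h, where 0.271, 0 and 0.270 CPM were found, the difference was 22.5-fold (log2 4.49 ± 0.90, edgeR adjusted p = 0.000727) and passed without each library. At 3 h the difference from 130 mM, log2 1.90 ± 0.77, did not pass (edgeR adjusted p = 0.119). At 48 h the differences from regular medium and from 130 mM were log2 0.17 ± 0.78 and 0.40 ± 0.78. Neither passed (edgeR adjusted p = 0.935 and 0.808).

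In regular medium il11a was at 0.574, 0.429 and 0.453 CPM at 3 h, at 0.314, 0.556 and 1.14 CPM at 24 h and at 0.157, 0.108 and 1.89 CPM at 48 h. The libraries at 3 and 24 h lay above all uncut ones, with log2 changes of 1.98 ± 0.92 and 2.45 ± 0.91 that did not pass (edgeR adjusted p = 0.170 and 0.0970). At 48 h the libraries overlapped with uncut ones and log2 2.54 ± 0.91 did not pass (edgeR adjusted p = 0.0687). DESeq2 called il11a at 24 and 48 h and not at 3 h. In 130 mM the means were 0.906 ± 0.0920 CPM at 3 h, 0.180 ± 0.156 CPM at 24 h and 0.610 ± 0.0556 CPM at 48 h (SD, n = 3). No change from uncut larvae passed there.

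The receptor chain that interleukin 11 shares with interleukin 6, il6st, was also higher in 222 mM at 24 h against 130 mM and at 3 h against regular medium. Its other comparisons are not given here. At 24 h it was at 166, 158 and 205 CPM in 222 mM against 74.5, 84.9 and 79.0 CPM in 130 mM (log2 1.15 ± 0.12, edgeR adjusted p = 1.08e-07). At 3 h it was at 185, 124 and 152 CPM in 222 mM against 98.7, 86.6 and 84.1 CPM in regular medium (log2 0.78 ± 0.12, edgeR adjusted p = 3.01e-05). Both differences passed without each single library. The interleukin 11 receptor gene il11ra was at 5.16, 5.48 and 5.16 CPM at 24 h in regular medium, below the 11.14, 7.87 and 5.56 CPM of uncut larvae (log2 -0.64 ± 0.17, edgeR adjusted p = 0.0175). That call was lost without any of 3 single libraries (highest adjusted p = 0.202). In 130 mM at 24 h il11ra was higher than in regular medium, at 8.72, 7.80 and 9.40 CPM (log2 0.71 ± 0.17, edgeR adjusted p = 0.00997).

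The second interleukin 11 gene, il11b (GRCz11 chromosome 19, 10429810 to 10432134), had 0 counts in all uncut libraries of 130 mM and 222 mM and 0, 5 and 4 counts in those of regular medium. Its highest groups were 3 h in 222 mM with 15, 11 and 6 counts, 24 h in 222 mM with 14, 10 and 0 counts, 48 h in 222 mM with 0, 27 and 6 counts and 3 h in 130 mM with 14, 0 and 11 counts. At 3 h in 222 mM every library was above the uncut ones. With edgeR no comparison passed, and 4 had an unadjusted p under 0.05, namely those of the 4 groups just named with their uncut larvae. DESeq2 gave il11b an adjusted p in 6 of the 21 comparisons and called none of these. For il6 (GRCz11 chromosome 19, 2699136 to 2707048) the highest count was 15, in replicate 2 at 3 h in 130 mM, where the other libraries had 0. No count of il6 was found in uncut larvae in 222 mM or at 48 h in regular medium.

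The gene of the dampening cytokine il10 (GRCz11 chromosome 11, 21137948 to 21139503) had at most 23 counts in a library, at 3 h in 222 mM, where the other libraries had 0 and 3. All libraries had reads at 24 h in regular medium, with 4, 11 and 11 counts, at 48 h in regular medium, with 8, 7 and 6 counts, at 3 h in 130 mM, with 18, 6 and 9 counts, and at 48 h in 222 mM, with 8, 14 and 14 counts. In the other groups at least 1 library was at 0. Counts at 3 h in 130 mM were above those in regular medium at that time, which were 0, 4 and 0, without overlap. No comparison passed with edgeR, and none had an unadjusted p under 0.05. DESeq2 gave il10 an adjusted p in 6 of the 21 comparisons and called none of these.

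**Figure D3:**
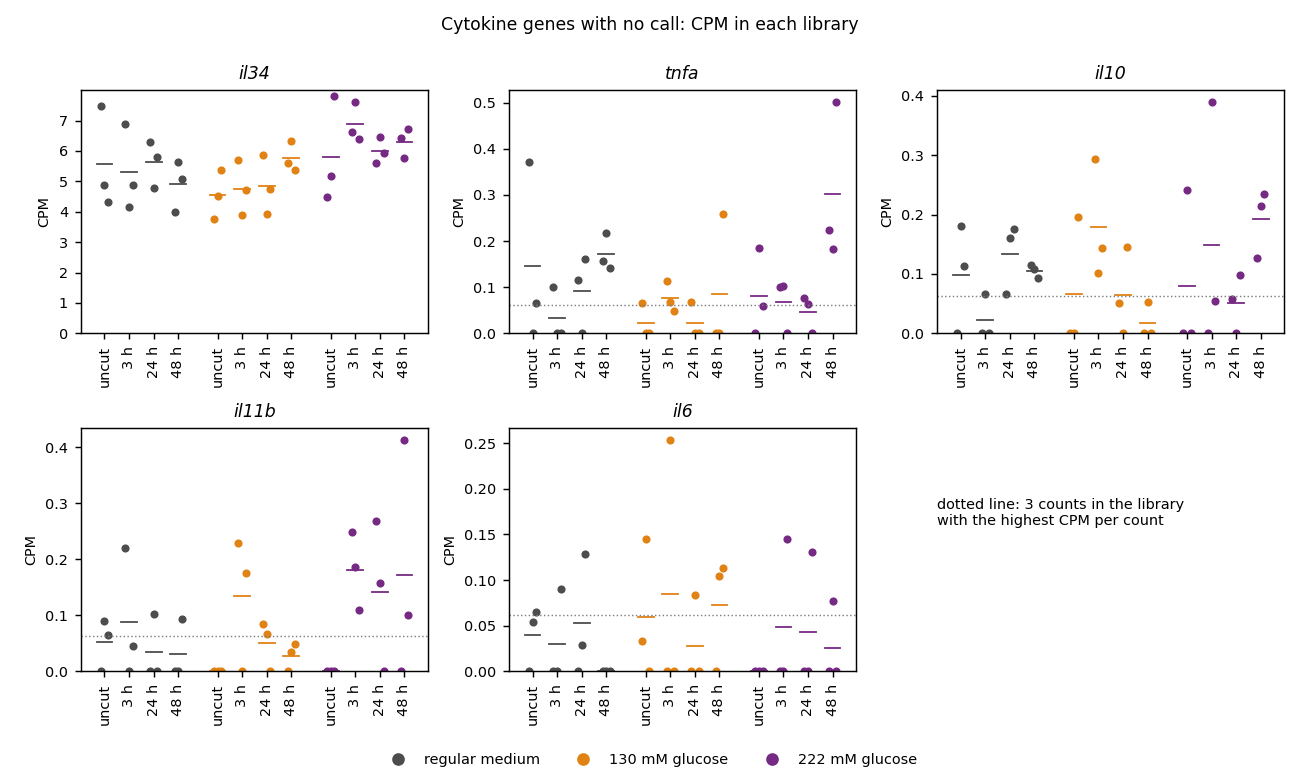
CPM (y axis, linear from 0) of the 5 cytokine genes with no call, in each library (points) and as the group mean (lines), by medium (colour) and time (x axis). The dotted line marks 3 counts in the library with the highest CPM per count, 0.0622 CPM. Only il34 lies well above it in every library.

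The other cytokine known for dampening, tgfb1a (GRCz11 chromosome 15, 2776506 to 2803313), changed little in size but with a small spread. In regular medium it was at 21.01, 15.8 and 19.5 CPM in uncut larvae and at 16.4, 9.50 and 11.3 CPM at 3 h. The groups overlapped, and the fall of log2 0.60 ± 0.15 passed (edgeR adjusted p = 0.00728). Without replicate 2 at 3 h the change was log2 -0.44 with an adjusted p of 0.0714, and without replicate 1, which stood apart, it was log2 -0.85. By 24 and 48 h the means were 19.7 ± 1.83 and 19.9 ± 0.995 CPM (SD, n = 3), the highest of the series.

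In uncut larvae tgfb1a was at 15.26, 16.18 and 12.4 CPM in 130 mM and at 15.63, 14.99 and 15.63 CPM in 222 mM. Both were lower than in regular medium, but neither difference passed (log2 -0.36 ± 0.15 and -0.28 ± 0.15, edgeR adjusted p = 0.220 and 0.239). At 24 h in 222 mM tgfb1a was at 12.8, 13.03 and 13.05 CPM, below the 17.9, 19.8 and 21.5 CPM of regular medium. The difference of log2 -0.61 ± 0.15 passed (edgeR adjusted p = 0.00210), also without each single library (log2 -0.67 to -0.54). At 3 h the order was the reverse, with 17.8, 15.8 and 17.1 CPM in 222 mM and log2 0.45 ± 0.15 against regular medium (edgeR adjusted p = 0.0293). Those groups overlapped, and the call was lost without any of 4 of the 6 libraries (log2 0.29 to 0.70). In 130 mM it was at 12.4, 13.3 and 15.5 CPM at 48 h, below the 20.5, 20.5 and 18.8 CPM of regular medium (log2 -0.54 ± 0.15, edgeR adjusted p = 0.0112). That call was lost without either of 2 libraries of 130 mM (highest adjusted p = 0.0679). The course after amputation differed from that in regular medium in both glucose media (edgeR F test, adjusted p = 0.0409 for 130 mM and 0.00660 for 222 mM). The former was lost without any of 15 of the 24 libraries, and the latter passed without each of them.

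The macrophage growth factor il34 (GRCz11 chromosome 18, 18527170 to 18543358) was steady. Its libraries ran from 3.75 to 7.80 CPM and its group means from 4.56 ± 0.815 CPM in uncut larvae in 130 mM to 6.88 ± 0.638 CPM at 3 h in 222 mM (SD, n = 3). The 4 groups with the highest means were the 4 groups in 222 mM. With edgeR no comparison passed, and 1 had an unadjusted p under 0.05, that of 222 mM with 130 mM at 3 h. There the libraries did not overlap and the difference was log2 0.53 ± 0.22 (edgeR adjusted p = 0.132). DESeq2 called none for il34.

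**Figure D4:**
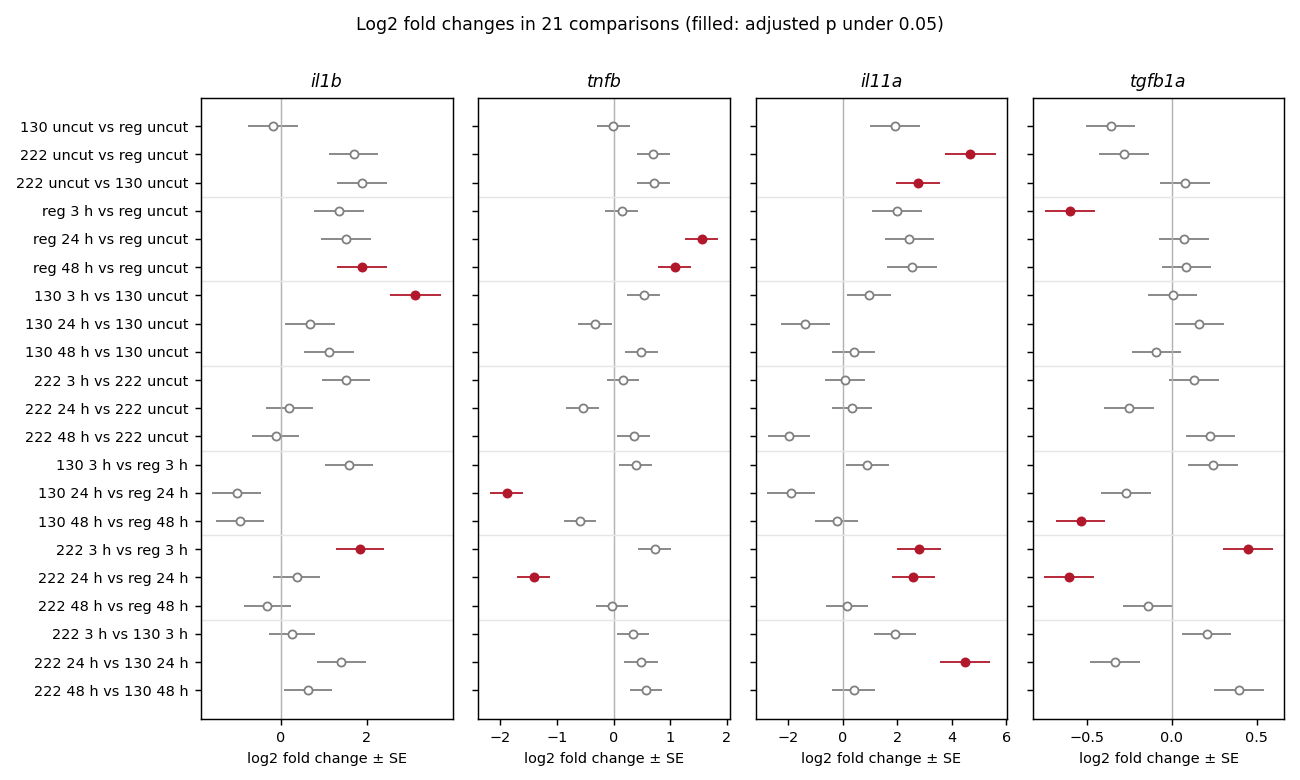
Log2 fold changes with their standard errors (x axis) of the 4 cytokine genes that differed between groups, in 21 comparisons of 2 groups (y axis), where filled red points have an adjusted p under 0.05. The calls of il11a are all higher in 222 mM, those of tnfb are higher after amputation in regular medium and lower in glucose at 24 h, and those of il1b are all positive.

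Over the 21 comparisons of 2 groups, 16 of 168 pairs of a tested cytokine gene and a comparison passed, 5 for il11a, 4 each for tnfb and tgfb1a and 3 for il1b. In 13 of the 16 that passed, the libraries of the groups compared did not overlap, and of all 168 pairs 48 did not overlap. The share of all genes without overlap was not counted, so nothing is read from these numbers. Many of these comparisons share libraries and are not independent. Among uncut larvae, 1 of 8 tested cytokine genes differed between 222 mM and regular medium, beside 9.89% of all genes, and 1 of 8 between 222 mM and 130 mM, beside 6.01%. After amputation in regular medium 1 of 8 passed at 3 h, 1 at 24 h and 2 at 48 h, beside 11.3%, 7.37% and 11% of all genes. In 130 mM 1 of 8 passed at 3 h, beside 30.4%. Between 130 mM and regular medium 1 of 8 passed at 24 h and 1 at 48 h, beside 5.02% and 15.4%. Between 222 mM and regular medium 3 of 8 passed at 3 h and 3 at 24 h, beside 18.8% and 28.5%. Between 222 mM and 130 mM at 24 h 1 of 8 passed, beside 19.9%. In the tests of the course after amputation 2 of 8 passed for 130 mM and 2 for 222 mM against regular medium, beside 13.3% and 11.5%. With so few genes, the shares lie close to the background in most comparisons, and the results are about the named genes.

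In 10 comparisons of 2 groups no cytokine gene passed with edgeR. These were uncut larvae of 130 mM against regular medium, where 1.75% of all genes passed, 24 and 48 h against uncut larvae in 130 mM (1.69% and 4.49%), 3, 24 and 48 h against uncut larvae in 222 mM (0.636%, 3.45% and 13.8%), 130 mM against regular medium at 3 h (6.91%), 222 mM against regular medium at 48 h (12.2%), and 222 mM against 130 mM at 3 h and 48 h (9.33% and 12.2%). In the same order, 2, 0, 0, 2, 1, 2, 1, 0, 2 and 1 of the 8 genes had an unadjusted p under 0.05. The percentages above are at an adjusted p under 0.05 and cannot be set beside these counts. The share of all genes at an unadjusted p under 0.05 is not given here, so nothing is read from them. DESeq2 called 1 of them at 48 h in 222 mM, where it was il11a, and 1 at 3 h between 130 mM and regular medium, where it was il1b, and none in the other 8. It gave an adjusted p to 5 of the 8 genes in 8 of these 10 comparisons, where tnfa, il10 and il11b had none. With limma on log2(FPKM + 0.1), il1b passed at 3 h between 130 mM and regular medium and tgfb1a at 48 h between 222 mM and 130 mM. The course after amputation differed between 222 mM and 130 mM for none of the 8 genes with edgeR, beside 18.7% of all genes. At an unadjusted p under 0.05 there were 2, again with no share of all genes to set beside them. With DESeq2 and limma il11a and tgfb1a passed.

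A further 4 lists of related genes were read beside the cytokines, chosen with earlier results of these data known. Their counts are set beside the shares of all genes as a description, with no test of a list. Of 46 genes of cytokine processing and NF-kB signalling, 16 rose and none fell by 24 h in regular medium, beside 4.19% and 3.18% of all genes. The median change of the list was log2 0.34, against -0.02 over all genes. The NF-kB inhibitor gene nfkbie was at 14.6, 11.4 and 15.6 CPM in uncut larvae and at 32.1, 27.9 and 29.8 CPM at 24 h (log2 1.11 ± 0.14, edgeR adjusted p = 6.92e-06). Among those that rose were also bcl3, a nuclear partner of NF-kB (log2 1.14 ± 0.25), and nlrp3, a sensor of the inflammasome (log2 1.95 ± 0.54), whose call was lost without any of 4 libraries (highest adjusted p = 0.0999). At 48 h in regular medium 18 of 46 rose and none fell, beside 4.98% and 6.02%. They included tnfaip3, which encodes the NF-kB inhibitor A20 and was at 6.38, 6.53 and 6.07 CPM in uncut larvae and 13.6, 15.99 and 14.7 CPM at 48 h (log2 1.22 ± 0.24, edgeR adjusted p = 0.00126). Leaving out single libraries gave 8 to 22 rises at 24 h and 9 to 21 at 48 h, with the lowest count in both cases without replicate 2 of the uncut larvae and the highest without replicate 3. The share of all genes called was 3.38% and 12.2% at 24 h and 3.48% and 21.6% at 48 h in these fits. A fit of only the libraries compared gave 4 and 8 rises. The share of all genes called in that fit is not given here, so these counts are not read as a result about the list. Of the markers given beside tnfb, 4 of 13 of macrophages and 2 of 7 of neutrophils rose in the same comparison at 24 h, and their part was not tested.

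At 24 h, part of the same list was lower in glucose than in regular medium. In 130 mM 12 of 46 genes were lower and none higher, beside 3.35% and 1.67% of all genes, and without replicate 1 of 130 mM, which stood apart, 4 were lower, beside 1.73% of all genes called in either direction, against 5.02% with it. In 222 mM 17 were lower and 2 higher, beside 15.7% and 12.8%, and 13 to 16 were lower without a single library. In those fits 21.9% to 24.1% of all genes were called in either direction, against 28.5% with all libraries. The list's medians were log2 -0.32 and -0.23, against 0.02 and -0.01 over all genes. In 222 mM the inflammasome adaptor gene pycard was at 11.9, 10.6 and 9.55 CPM, against 40.8, 38.7 and 38.9 CPM in regular medium (log2 -1.89 ± 0.17, edgeR adjusted p = 2.93e-09). The inflammasome sensor nlrp3 was at 0.191, 0.174 and 0 CPM against 4.52, 3.10 and 4.39 CPM (log2 -5.04 ± 0.66, edgeR adjusted p = 1.05e-06). These genes act on interleukin 1 beta, whose own gene did not pass in that comparison (log2 0.37 ± 0.55, edgeR adjusted p = 0.673). The transcription factor gene irf1b, a readout of cytokine signalling, was at 119.7, 109.0 and 118 CPM at 24 h in regular medium, 26.1, 46.1 and 45.7 CPM in 130 mM and 19.9, 18.2 and 16.9 CPM in 222 mM. Of the macrophage markers 8 of 13 were lower in 222 mM and 3 of 13 in 130 mM, and none was higher. In 222 mM 7 of 12 tested lymphocyte and 3 of 7 neutrophil markers were also lower. So were 5 of 8 epidermis and 7 of 18 tested larval tissue markers, and none of these lists had a higher one. In 130 mM 2 of the 18 larval tissue markers were lower, and no lymphocyte, neutrophil or epidermis marker passed. Of 4 tested erythrocyte markers 2 were higher in 222 mM and 1 in 130 mM, and none was lower. The part of all these cells in the counts was not tested. Part of the processing and NF-kB list was lower in glucose at 48 h too. Against regular medium 14 of 46 genes were lower in 130 mM and 13 in 222 mM, and none was higher. Beside them 15.4% and 12.2% of all genes were called in either direction. These 48 h counts were not examined without single libraries.

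The list of readouts of cytokine signalling held chemokines, metalloproteinases, prostaglandin synthases and Stat3 targets among others. At 3 h in 130 mM 18 of 36 tested readouts rose and 1 fell, beside 16.4% and 14% of all genes, with a list median of log2 1.22 against 0 over all genes. The prostaglandin synthase gene ptgs2b went from 16.01, 16.8 and 19.4 CPM to 186, 102 and 93.5 CPM (log2 2.87 ± 0.59, edgeR adjusted p = 0.000740), and the AP-1 factor gene fosl1a from 5.56, 4.13 and 3.91 CPM to 108, 65.7 and 58.1 CPM (log2 4.09 ± 0.91, edgeR adjusted p = 0.00155). In 222 mM 2 of 36 readouts passed between 3 h and uncut larvae, both higher, beside 0.636% of all genes. Against regular medium at 3 h, 18 readouts were higher and 1 lower in 222 mM, beside 8.76% and 10.1%, while 4 were higher and none lower in 130 mM, beside 6.91% called in either direction. In 222 mM 11 were higher without replicate 1, the library with the most il1b, beside 12.4% of all genes called in either direction, against 18.8% with it. A fit of only the libraries compared gave 2, and the share of all genes called in that fit is not given here. The neutrophil chemokine gene cxcl8b.1 was at 8.73, 3.26 and 3.53 CPM there, against 1.91, 0.808 and 0.664 CPM (log2 2.2 ± 0.56, edgeR adjusted p = 0.00577), and without replicate 1 of 222 mM the log2 difference was 1.59 with an adjusted p of 0.0666.

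In uncut larvae 11 of 36 readouts were higher in 222 mM than in regular medium and 3 lower, beside 4.46% and 5.43% of all genes, with a list median of log2 0.57 against -0.02. A fit of only the libraries compared gave 1 higher, again without the share of all genes beside it. The leptin gene lepb was at 0.592, 1.58 and 4.13 CPM, against 0, 0.126 and 0.163 CPM (log2 4.44 ± 1.09, edgeR adjusted p = 0.00834, 0.0544 without replicate 1 of regular medium). At 24 h 12 readouts were higher in 222 mM than in 130 mM and 3 lower, beside 8.68% and 11.2%, and 6 to 10 were higher without a single library, 6 without replicate 2 of 130 mM, beside 13.5% of all genes called in either direction, against 19.9% with it. Against regular medium at 24 h the result was mixed, with 8 readouts higher and 6 lower in 222 mM, beside 12.8% and 15.7%. The metalloproteinase gene mmp9 was at 76.4, 58.4 and 96.1 CPM in 222 mM at 24 h. In 130 mM it was at 13.3, 18.6 and 20.4 CPM (log2 2.14 ± 0.43, edgeR adjusted p = 0.000975). The other lists held receptors and other ligands. Of 32 receptors 4 rose and 1 fell by 24 h in regular medium (1 to 7 rose without single uncut replicates, fewest without replicate 1 and most without replicate 3), and 2 were higher and 7 lower in 222 mM than in regular medium at 24 h. All genes had 4.19% higher and 3.18% lower in the former comparison and 12.8% and 15.7% in the latter. Without uncut replicate 3, 12.2% of all genes were called in either direction in the former, against 7.37% with it. Of 43 tested ligands 2 rose and none fell, and 1 was higher and 10 lower in those comparisons, among the latter tnfsf10, a death ligand of the tumour necrosis factor family (log2 -1.46 ± 0.23, edgeR adjusted p = 2.13e-05).

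**Figure D5:**
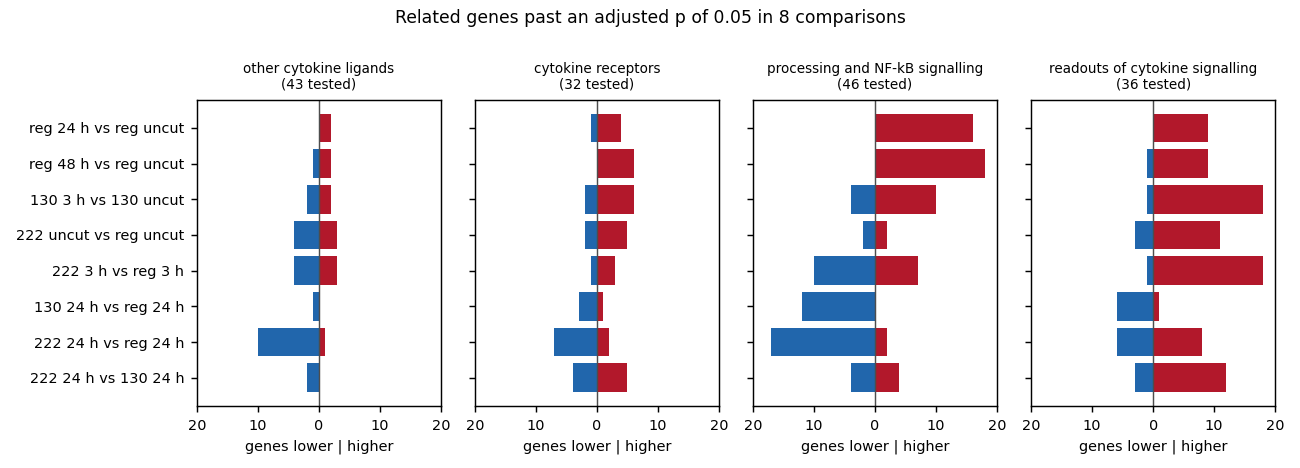
Number of genes of 4 lists with an adjusted p under 0.05 in 8 comparisons (rows), lower to the left in blue and higher to the right in red. The list of processing and NF-kB signalling has 16 and 18 rises and no fall after 24 and 48 h in regular medium, and 12 and 17 genes lower in glucose at 24 h, while 18 readouts are higher at 3 h than in uncut larvae in 130 mM, and 18 at 3 h in 222 mM than in regular medium.

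The genes whose pattern over the 12 group means was most like each cytokine were sought among 16420 genes, as a description of these means and with no test. Closest to il1b were stk10 (Pearson's r = 0.954), phlda2 (0.933) and sesn2 (0.923). The genes most like il11a were nmd3 (0.962), arfgef2 (0.957) and its own receptor chain il6st (0.951). For tnfb they were c6 (0.898), the NF-kB regulator tnip2 (0.882) and cart3 (0.839), and for tgfb1a crfb1 (0.884), arhgap20b (0.874) and plekhj1 (0.864). Among the cytokines themselves, r over the group means was 0.682 between il1b and il11a, 0.481 between il1b and tnfb, 0.337 between tnfb and il11a and -0.337 between il11a and tgfb1a. All of these values rest on the same 36 libraries and their scaling.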

How the data were processed

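RNA of whole wild-type larvae was sequenced in 36 paired-end libraries, 3 for each of 12 groups. Per the submitters' processing notes, HISAT, StringTie and edgeR were used with GRCz11. The authors deposited for each of 30221 genes a count, whole and not normalized, and an FPKM value in each library. How the counts were made, and with which strand setting, is not given in the sources used here, so overlapping genes or near-identical copies may share reads. The 9 genes, the gene lists and the tests were chosen with earlier results of these data known. Positions and the symbols of the 9 genes were read from the deposited table. Genes of the other lists whose symbol was not found there were sought in an Ensembl name table and then among RefSeq synonyms. Both nlrp3 and cxcl8b.1 were matched by the Ensembl name table.

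Counts were tested with edgeR 4.0.16 (R 4.3.3): genes passing filterByExpr (minimum count 10, 25319 genes), TMM scaling, 1 mean per group, all 36 libraries in 1 robust quasi-likelihood fit (common biological coefficient of variation 0.235, median prior df 7.93), and Benjamini-Hochberg adjustment within each of 21 comparisons of 2 groups, 3 F tests of the course after amputation and 1 F test over the groups. The filter was preferred to a minimum of 1 FPKM because the cytokine genes are low. The procedure was tested on simulated data with the same spread for every gene and with changes only in genes above a minimum mean count. That test does not cover cytokine genes with few counts or a larger spread. Each SE was derived from the log2 fold change and its F statistic. The alternatives were median ratio scaling, no expression filter, a minimum of 1 FPKM in 3 libraries, DESeq2 1.42.0, limma 3.58.1 on log2(FPKM + 0.1) or log2(FPKM + 1), the criterion of the series text (unadjusted p under 0.05 and a log2 change beyond 1), a fit of the compared libraries alone, a block for the replicate number, each library left out and, chosen after seeing the data, the 4 libraries that stood apart left out. A library stood apart when its mean correlation with the others of its group, over 20093 genes, lay over 0.02 under the one between the other pair. Replicate numbers have no stated meaning. Deviations from the group means correlated above 0.1 in all 3 pairs of the same number only between uncut larvae and 3 h in 222 mM. There r was 0.174, 0.153 and 0.389 across genes. Passing this cut does not show that the numbers mark pairs of samples. No 2 libraries had identical counts. Members of the related lists were named when they were among up to 4 genes with the largest change of their list in a comparison, past the threshold and without overlap, and the genes most like a cytokine were the 3 with the highest r and a mean of at least 1 CPM. Of the macrophage markers 13 of 15 matched, and mpeg1.1 and mpeg1.2 were not found, so the macrophage sums do not include them.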

Additional observations from a re-analysis of the deposited data

Results flagged for a closer look

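The course of tnfb over the 3 times after amputation, relative to uncut larvae, differed between media (edgeR F test, adjusted p = 0.00221 for 130 mM against regular medium and 0.00200 for 222 mM against regular medium). The gene was higher at 24 h than in every uncut library in 3 of 3 libraries of regular medium, and in 0 of 3 in either glucose medium. These calls passed without each of the 24 libraries concerned (highest adjusted p = 0.00812 and 0.00819).

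The course of tgfb1a differed too (edgeR F test, adjusted p = 0.0409 for 130 mM and 0.00660 for 222 mM against regular medium). Its changes from uncut larvae at 3, 24 and 48 h were log2 -0.60, 0.07 and 0.09 in regular medium, 0.0047, 0.16 and -0.09 in 130 mM and 0.13, -0.25 and 0.23 in 222 mM. Over the left-out libraries the adjusted p ran from 0.00127 to 0.149 for 130 mM and from 0.000173 to 0.0242 for 222 mM, in both cases lowest without replicate 1 and highest without replicate 2 at 3 h in regular medium. In each contrast the 2 media were compared with the same libraries of regular medium.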

How the results depend on the processing

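Of 24 calls of a cytokine gene in a comparison, 13 held in every alternative they were run in and 14 without each single library, and none changed direction. Median ratio scaling and no expression filter left the counts of calls as they were or within 1.5 times. The counts of calls, by comparison family, were 2 for glucose in uncut larvae (1 to 3 leaving out a library), 4 for amputation in regular medium (2 to 5), 1 in 130 mM (1 to 1), 0 in 222 mM (0 to 1), 2 for 130 mM against regular medium (1 to 4), 6 for 222 mM against regular medium (3 to 7), 1 for 222 mM against 130 mM (1 to 1), 4 for the course after amputation (3 to 7) and 4 over the 12 groups (4 to 4). The libraries whose loss moved a count beyond 1.5 times were any uncut replicate of 130 mM or uncut replicate 3 of 222 mM (1 in uncut larvae), uncut replicates 1 and 2 (2 in regular medium), uncut replicate 3 of 222 mM (1 in 222 mM), replicate 1 at 3 h in regular medium (4) and replicates 1 and 2 at 48 h in 130 mM (1) for 130 mM against regular medium, replicates 2 and 3 at 3 h in regular medium and replicate 1 at 3 h in 222 mM (3) for 222 mM, and uncut replicate 3, replicate 1 at 3 h or replicate 2 at 48 h in regular medium (7) for the course. DESeq2 gave 4 in uncut larvae, 7 in regular medium, 1 in 222 mM, 2 for 222 mM against 130 mM and 10 for the course. The criterion of the series text gave 5 in uncut larvae, 8 in regular medium, 2 in 130 mM, 5 in 222 mM and 3 for 222 mM against 130 mM. A minimum of 1 FPKM, and also limma with 0.1, gave 2 for 222 mM against 130 mM and 7 for the course. With a pseudocount of 1, limma gave 1 in 222 mM, 4 for 130 mM against regular medium, 3 for 222 mM against 130 mM and 7 for the course. Only the libraries compared gave 1 in regular medium, 2 in 130 mM, 1 in 222 mM, 3 for 222 mM against regular medium and 4 for 222 mM against 130 mM. Without the libraries that stood apart there were 1 in uncut larvae, 1 in 222 mM, 4 for 130 mM against regular medium and 4 for 222 mM against 130 mM. The share of all genes called then rose in each of the 21 comparisons of 2 groups. At 3 h it went from 6.91% to 25.2% for 130 mM against regular medium and from 9.33% to 21.5% for 222 mM against 130 mM. For the other settings the shares of all genes are not set beside these counts, so nothing about the cytokine genes is read from them. The cause of the differences between settings was not tested. The replicate block gave 5 calls for the course and the main count in every other family, and in the comparison of 3 h with uncut larvae in 222 mM it changed no call. For il6, tnfa, il10 and il11b a count of 0 allows up to 0.0622 CPM. The biological coefficient of variation of the latter 3 was 1.25 to 1.37, and whether depth or spread between libraries limited their calls was not tested.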
